A study of Mus musculus with 24 samples.

Results

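The response of dispersed mouse islet cells to palmitate (PA) was described across all genes in cells that carried an antisense oligonucleotide (ASO) against the 5′ fragment of tRNA Glu(CTC), named αGlu. It rests on 12 of the 24 mRNA libraries of the experiment, the 6 αGlu PA and the 6 αGlu BSA libraries, taken by the ASO and the treatment in their titles. The islets came from wild-type mice, which by the methods of the study were of both sexes and 12 to 14 weeks old. After isolation and handpicking they were dispersed, transfected with 50 pmol of ASO, and then cultured for 48 h, the αGlu PA cells in 0.5 mM PA on its BSA carrier and the αGlu BSA cells in the carrier alone at 0.75%. The other 12 libraries, Ctr PA and Ctr BSA, came from cells given a control ASO and the same treatments, and they enter here as a comparison. All 4 groups share dispersal and transfection, every group has 3 libraries in batch 1 and 3 in batch 2, and the labels do not say what a batch is. Dispersed islets hold several endocrine cell types with connective, vascular and immune cells, and how many mice gave the cells of a library is not given in the sources used here. By the study's description, the groups of a biological replicate share an animal, but the labels do not say which libraries these are.

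PA is an abundant saturated fatty acid of the blood. In beta cells it is activated to its acyl-CoA, which enters mitochondria through the carnitine shuttle for oxidation, is stored in lipid droplets or is built into sphingolipids. Fatty acids are ligands of the PPAR nuclear receptors, which drive many of the oxidation genes, and a long surplus of PA is known to burden the endoplasmic reticulum (ER) of beta cells and to engage the unfolded protein response and its ATF4 and CHOP branch.

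The ASO is printed here because it is what sets these 12 libraries apart from the other 12. It is a locked nucleic acid inhibitor of 20 bases, and the capitals in the target mark bases 2 to 21, which pair with the whole ASO.
αGlu ASO: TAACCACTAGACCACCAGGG
target: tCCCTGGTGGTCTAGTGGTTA
The tRNA fragment itself is not measured in mRNA libraries, so its level under the ASO was not checked in these data.

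The αGlu BSA libraries held 24608893 to 28110837 counts and the αGlu PA libraries 25009035 to 31049750. Islet hormone genes led the profile of every library, and Ins1 and Ins2 together took 7.55% to 11.4% of the counts under BSA and 6.26% to 9.87% under PA. Batch 1 held far more acinar RNA than batch 2: the summed level of 16 acinar markers was at least 4090 CPM (read counts scaled to a common library size) in the 6 libraries of batch 1 and at most 774 CPM in the 6 of batch 2. The αGlu PA library S8 stood apart from the other 5 of its group, and its value lay far from the rest of the group for several genes named here, among them the macrophage gene Lyz2 and the collagen gene Col1a1. It was kept, and values without it are given for several results.

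PA moved a large part of the transcriptome of αGlu cells. Of 15916 genes tested, 2290 rose and 2253 fell at an adjusted p under 0.05 in edgeR's quasi-likelihood test, which is 14.4% and 14.2% of the genes, or 28.5% in all. Changes above 2-fold at an unadjusted p under 0.05 were less even, with 131 genes higher (0.823%) and 755 lower (4.74%), or 5.57% in all. The genes of both directions were mostly of low level, with a median of 39.3 counts per library for the lowered and 49.4 for the raised. The median over all tested genes was 460. Of the 755 lowered genes 722 code for protein, as do 106 of the 131 raised and 14576 of all 15916 tested. The plot of gene lists shows where these changes lay. In the rest of the text a gene "rose" or "fell" where its adjusted p in that test was under 0.05, changes are log2 fold changes of PA over BSA with their standard error (SE, 6 libraries against 6), and the median over all tested genes was 0.01. Genes named as the exceptions of a list (Acot7, Gpam, Abcg1, Ulk1, Myc) were picked after their values were seen.

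**Figure D1:**
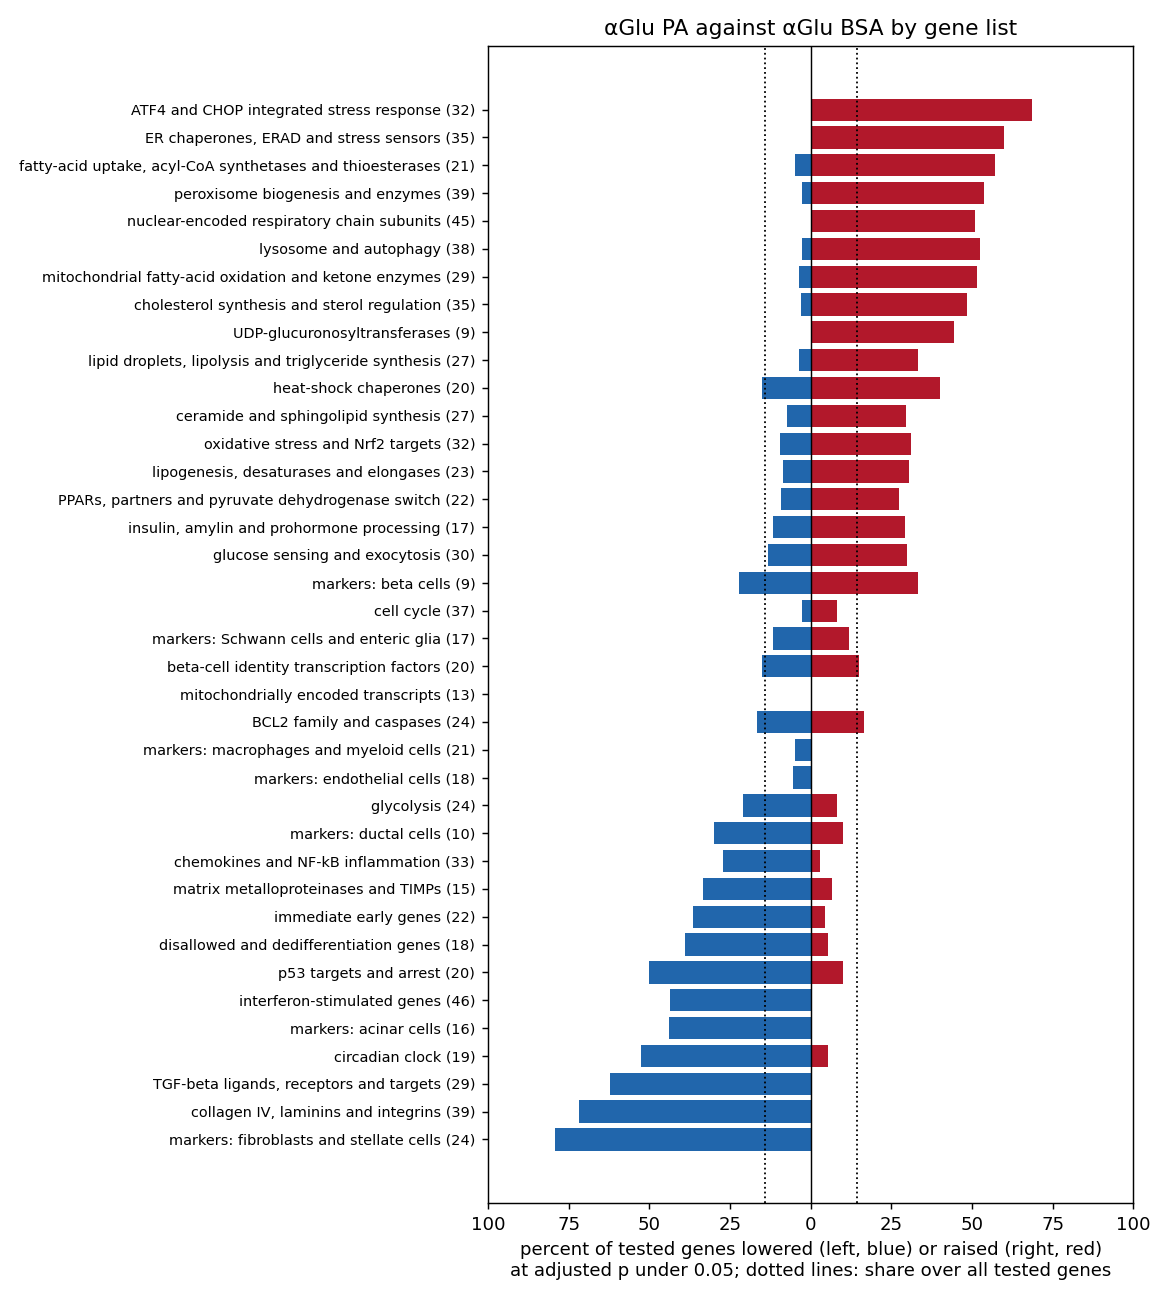
For each list of genes, bars give the percent of its tested genes (number in brackets) that fell to the left and rose to the right in αGlu PA against αGlu BSA libraries, at an adjusted p under 0.05. The dotted lines mark the 14.2% that fell and the 14.4% that rose over all 15916 genes. ATF4 and ER stress lists (22 of 32 and 21 of 35 rose) stand at the top, and TGF-beta, collagen IV and fibroblast lists (18 of 29, 28 of 39 and 19 of 24 fell) at the bottom.

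The fatty-acid genes rose from the carnitine shuttle onwards. Of 29 tested enzymes of mitochondrial fatty-acid oxidation and ketone synthesis, 15 rose, 1 fell and 13 did not pass, with a median change of 0.33. Cpt1a (chr19:3322334-3385733, GRCm38, plus strand), the carnitine palmitoyltransferase that commits fatty acids to mitochondrial oxidation, was at 29.1, 33.6 and 47.6 CPM under BSA (lowest, median and highest library) and at 156, 162 and 186 CPM under PA. The groups did not overlap, and the change was 2.25 ± 0.08 (edgeR adjusted p = 4.2e-16). The highest BSA value was that of library S6. Slc25a20, the carnitine-acylcarnitine carrier of the inner mitochondrial membrane, ran from 10.2 to 12.6 CPM under BSA and from 28.7 to 33.7 CPM under PA, a change of 1.43 ± 0.09. Aldh9a1, which makes a precursor of carnitine, ran from 43.2 to 55.6 CPM under BSA and from 107 to 154 CPM under PA, a change of 1.41 ± 0.05. For these 3 genes each PA library was above each BSA library, as for 4.17% of all tested genes. Another 3.95% lay wholly lower under PA, so that the groups were apart for 8.12%.

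Inside the mitochondrion, the very long-chain acyl-CoA dehydrogenase Acadvl rose by 0.92 ± 0.07 and the trifunctional protein subunit Hadha by 0.46 ± 0.05. The thiolases Acaa2 and Acat1 rose by 1.61 ± 0.13 and 1.05 ± 0.07. The 1 gene of the list that fell was Bdh1, which interconverts ketone bodies, by 0.42 ± 0.11 on the log2 scale. Hadha and Bdh1 were picked after their values were seen.

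**Figure D2:**
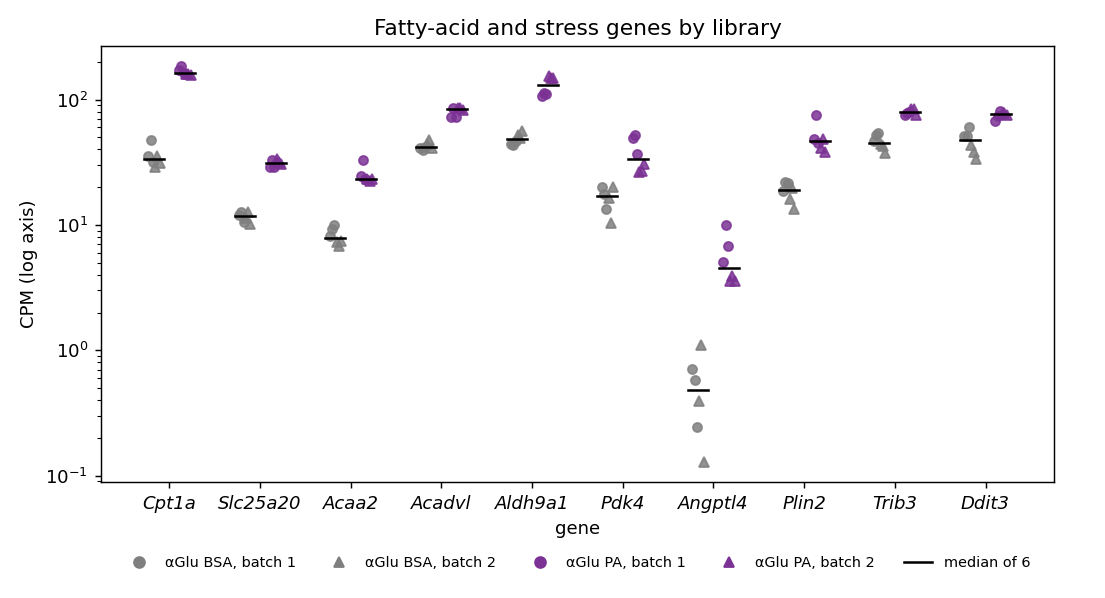
CPM on a log axis in the 6 αGlu BSA (grey) and 6 αGlu PA (purple) libraries for 10 genes of fatty-acid use and stress, with circles for batch 1, triangles for batch 2 and a line at the median. PA libraries lie above BSA libraries without overlap for each of the 10 genes shown, which were chosen with earlier results of these data known. Over all tested genes this held for 4.17%.

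Peroxisomes, which shorten very long and branched fatty acids, moved in the same direction. Of 39 tested peroxisomal genes 21 rose and 1 fell, with a median of 0.20. The isomerase Eci2 rose by 0.61 ± 0.06, the hydrolase of coenzyme A esters Nudt7 by 0.58 ± 0.07 and the membrane protein Pxmp4 by 1.30 ± 0.08. Pxmp2, the gene that fell, was low, with a median of 1.09 CPM under BSA and 0.148 under PA, and was picked after its values were seen.

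Among 22 genes of the PPARs, their partners and the pyruvate dehydrogenase switch, 6 rose and 2 fell. Angptl4, a secreted inhibitor of lipoprotein lipase and a widely used PPAR target, ran from 0.128 to 1.11 CPM under BSA (median 0.486) and from 3.55 to 10.03 CPM under PA (median 4.51). No PA library reached down to the BSA range, and the change was 3.29 ± 0.37. Pdk4, the kinase that turns off pyruvate dehydrogenase, ran from 10.3 to 20.1 CPM under BSA and from 26.6 to 52.2 CPM under PA (1.16 ± 0.15). The other genes that rose were the mitochondrial carrier Ucp2 by 0.59 ± 0.08, the receptor Pparg by 0.59 ± 0.08, its coactivator Ppargc1a by 0.80 ± 0.17 and the dehydrogenase subunit Pdha1 by 0.16 ± 0.06. The 2 that fell were Txnip, a glucose-induced regulator of redox and glucose uptake, at -0.57 ± 0.08, and the pyruvate dehydrogenase phosphatase Pdp1 at -0.42 ± 0.12. Ppargc1a, Pdha1, Txnip and Pdp1 were picked after their values were seen.

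Uptake, activation and storage of fatty acids followed. Of 21 genes of uptake, acyl-CoA synthetases and thioesterases 12 rose and 1, the thioesterase Acot7, fell. The fatty-acid carrier protein Fabp3 was at 2.34 to 4.29 CPM under BSA and at 5.38 to 6.85 CPM under PA (1.03 ± 0.13). The thioesterases Acot1 and Acot2, which cut acyl-CoA back to free fatty acid, rose by 2.18 ± 0.33 and 1.23 ± 0.17, and their groups overlapped. They are near-identical neighbours, so reads may have been split between them. Of 27 lipid droplet and triglyceride genes 9 rose and 1, the acyltransferase Gpam, fell. Plin2, the main coat protein of lipid droplets in non-fat cells, was at 13.5, 19.1 and 21.9 CPM under BSA and at 38.2, 46.6 and 74.99 CPM under PA. The groups were apart, the highest value was that of S8, and the change was 1.41 ± 0.13 (edgeR adjusted p = 1.9e-08). The fat storage protein Fitm2 rose by 0.38 ± 0.05, and the last enzyme of triglyceride synthesis, Dgat2, by 0.62 ± 0.14.

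In the sphingolipid list 8 of 27 genes rose and 2 fell. Above 2-fold at an unadjusted p under 0.05, 1 of its genes was higher and 2 were lower. Degs2, a ceramide-forming desaturase and hydroxylase, rose by 1.02 ± 0.10, while Asah1, the acid ceramidase that degrades ceramide, rose by 0.55 ± 0.07 and Sgpl1, the lyase at the exit of the pathway, by 0.32 ± 0.05. Genes of both building and breakdown stood among those that rose. Of the 9 tested UDP-glucuronosyltransferases, which conjugate lipophilic molecules for export, 4 rose. Ugt1a9 ran from 4.25 to 11.7 CPM under BSA and from 14.2 to 28.03 CPM under PA (1.59 ± 0.17). The Ugt1a genes share their last exons, so the counts of single members are uncertain.

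Sterol and desaturase genes responded in a way that differed between batches. Of 35 genes of cholesterol synthesis and its regulation 17 rose and 1, the sterol exporter Abcg1, fell, with a median of 0.26. Within batch 1 the median was 0.14 and within batch 2 it was 0.44. The summed level of the list was 3040 to 3336 CPM in the BSA libraries, 3344 to 3592 CPM in the PA libraries of batch 1 and 4091 to 4177 CPM in those of batch 2. At an unadjusted p under 0.05, 18 of the 35 genes differed in response between batches, against 3.03% of all tested genes. After adjustment 3 of all genes passed (0.0188%), each with the higher change in batch 2. Fdps, the farnesyl diphosphate synthase, had changes of 0.41 in batch 1 and 1.17 in batch 2. The desaturase Fads2 had changes of -0.21 and 0.91, and the desaturase Scd2 of -0.18 and 0.80. DESeq2 passed 6 genes, and edgeR 1 gene where any of S6, S8, S10, S12, S14, S16, S18 or S24 was left out. For PA against BSA over both batches, Fads2 (0.34) and Scd2 (0.31) did not pass. Sqle, the squalene epoxidase, rose in both, by 0.41 and 0.55, as did Insig1, a sterol-sensing regulator, with an overall change of 0.62 ± 0.09. Of 23 genes of lipogenesis 7 rose and 2 fell, led by the citrate carrier Slc25a1 (0.51 ± 0.06) and the elongase Elovl6 (0.55 ± 0.07), which extends PA itself. The summed level of this list was lower under PA in batch 1, at 4597.5 to 4815 CPM under BSA and 4159 to 4272.5 CPM under PA. In batch 2 it overlapped, at 4862 to 5492 CPM under BSA and 5064 to 5234 CPM under PA. Scd1, the desaturase of saturated fatty acids, changed by 0.39 in batch 1 and 1.35 in batch 2. Insig1 and Scd1 were picked after their values were seen.

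Stress genes of the ER rose as a group. Of 35 ER chaperones, degradation factors and stress sensors 21 rose and none fell, with a median of 0.20. The changes were modest, and none passed 2-fold. Hspa5, the chaperone BiP, was at 1507, 1899 and 2070 CPM under BSA and at 1978, 2442 and 2736 CPM under PA. The groups overlapped at their edges, and the change was 0.39 ± 0.07 (edgeR adjusted p = 9.1e-05). Derl1, a channel component of ER-associated degradation, did not overlap (133 to 179 against 189 to 263 CPM, 0.52 ± 0.04). The sensor Ern1, which splices Xbp1 mRNA, rose by 0.44 ± 0.06, and the degradation adaptor Sel1l by 0.29 ± 0.06.

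Of 32 genes of the ATF4 and CHOP response 22 rose and none fell, with a median of 0.39. Ddit3, which encodes CHOP, was at 33.2, 47.4 and 60.7 CPM under BSA and at 67.2, 76.1 and 81.2 CPM under PA, so that each PA library was above each BSA library. The change was 0.72 ± 0.13 (edgeR adjusted p = 0.00013). The table lists a second identifier for Ddit3, which held 0 counts. Trib3, a pseudokinase induced by CHOP, ran from 37.7 to 53.9 CPM under BSA and from 74.8 to 84.2 CPM under PA (0.79 ± 0.09). Atf5 rose by 0.54 ± 0.08, the secreted factor Stc2 by 0.91 ± 0.25, and Atf4 itself by 0.21 ± 0.05. Genes of amino acid supply rose as well, with 0.41 ± 0.06 for the proline enzyme Pycr1 and 0.45 ± 0.07 for the serine enzyme Psph. The asparagine synthetase Asns rose by 0.15 ± 0.05. Chac1, which degrades glutathione, rose by 0.33 ± 0.06. Stc2, Atf4, Asns and Chac1 were picked after their values were seen.

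The promoters of these genes could be read for the sequence elements that their regulators are known to bind. RefSeq promoters (GRCm38.p6, 250 bases before to 50 bases after a start) were at hand for 12105 tested genes, and elements were searched on both strands. The ER stress element was in the promoter of 9 of 29 genes of the ER list and in 0.157% of all 12105 genes. Of the 9 genes that hold it 7 rose, as did 9 of the other 20. Over all genes, 19 hold the element and 9 of these (47.4%) rose, against the 14.4% of all tested genes. This share is not separate from the list, since 9 of the 19 holders and 7 of the 9 that rose are genes of the list. The amino-acid response element TGATGNAA, which ATF4 binds, was in 8 of 29 promoters of the ATF4 list and in 2.84% of all. Of the 8 genes 7 rose, as did 13 of the other 21, while over all 344 genes with it 17.4% rose. The promoters of Hspa5 and Trib3 are printed because these genes stand for both branches. The capitals mark the element, which in Hspa5 ends 47 bases before the start and in Trib3 lies after it, on the reverse strand.
Hspa5 (chr2:34771840-34772139, plus strand): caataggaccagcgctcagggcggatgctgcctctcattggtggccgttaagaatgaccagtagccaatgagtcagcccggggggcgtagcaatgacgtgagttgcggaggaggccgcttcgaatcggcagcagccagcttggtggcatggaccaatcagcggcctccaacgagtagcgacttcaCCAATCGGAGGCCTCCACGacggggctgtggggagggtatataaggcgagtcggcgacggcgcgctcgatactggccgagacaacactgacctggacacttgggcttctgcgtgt
Trib3 (chr2:152344011-152344310, minus strand): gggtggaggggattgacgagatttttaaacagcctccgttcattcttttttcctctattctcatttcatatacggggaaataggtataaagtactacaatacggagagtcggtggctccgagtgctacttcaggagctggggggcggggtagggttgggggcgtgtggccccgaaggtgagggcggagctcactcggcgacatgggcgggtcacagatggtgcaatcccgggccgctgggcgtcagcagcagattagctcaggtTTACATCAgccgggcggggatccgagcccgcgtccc
A match is a description of letters in the window and was not tested as a binding site.

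Lysosomal genes rose as a group of similar size. Of 38 lysosome and autophagy genes 20 rose and 1, the autophagy kinase Ulk1, fell, with a median of 0.22. The summed level of the list did not overlap, with 5814 to 6496 CPM under BSA and 7123 to 7857 CPM under PA. Hexa, a hydrolase of gangliosides, rose by 0.67 ± 0.07, the autophagy receptor Optn by 0.60 ± 0.07, and the lysosomal calcium channel Mcoln1 by 0.49 ± 0.06, with 30.4 to 36.2 CPM under BSA and 42.3 to 51.5 CPM under PA. The CLEAR element TCACGTGA, bound by the lysosomal regulator TFEB and holding an E-box (CACGTG) at its centre, was in 6 of 28 promoters of the list and in 1.93% of all. All 6 of these genes rose, as did 9 of the other 22. Over all 234 genes with the element 22.2% rose and 8.97% fell. The Mcoln1 promoter is printed with the element in capitals, 39 bases before the start.
Mcoln1 (chr8:3500269-3500568, plus strand): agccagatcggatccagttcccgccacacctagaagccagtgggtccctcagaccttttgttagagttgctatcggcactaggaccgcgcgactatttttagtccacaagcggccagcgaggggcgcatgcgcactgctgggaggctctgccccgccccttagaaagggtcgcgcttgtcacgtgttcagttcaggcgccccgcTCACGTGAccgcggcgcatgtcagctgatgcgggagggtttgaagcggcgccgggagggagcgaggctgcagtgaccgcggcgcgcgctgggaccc

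Mitochondrial genes moved by small amounts, and most redox genes did as well. Of 45 nuclear-encoded subunits of the respiratory chain and ATP synthase 23 rose and none fell, with a median of 0.18, and all 45 had a positive change. The count is less firm than others, since it was 15, 15 and 13 without S2, S10 or S16. None of the 13 transcripts encoded in the mitochondrion passed the test (for mt-Co2, 0.14 ± 0.10). Among 32 redox genes 10 rose and 3 fell, and 2 were lower by more than 2-fold at an unadjusted p under 0.05. The haem oxygenase Hmox1 was at 54.2 to 77.2 CPM under BSA and 79.1 to 120 CPM under PA (0.55 ± 0.12, picked after its values were seen). Srxn1, which restores oxidized peroxiredoxins, rose by 0.38 ± 0.07. The mitochondrial chaperones Hspa9, Hspd1 and Hspe1 rose by 0.48 ± 0.07, 0.27 ± 0.05 and 0.32 ± 0.06, and 8 of 20 heat-shock genes rose in all (5 without S10 or S16).

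Cell death genes did not move together. Of 24 BCL2 family members and caspases 4 rose, Hrk, Bid, Bcl2l2 and Bnip3, and 4 fell, Apaf1, Bmf, Bcl2l11 and Bnip3l. Hrk, a neuronal BH3-only activator of apoptosis, rose by 1.19 ± 0.23 from a median of 1.14 CPM to 2.82 CPM, and Bid, which links death receptors to mitochondria, by 0.61 ± 0.12. The survival gene Bcl2l2 rose by 0.49 ± 0.06. Apaf1, the scaffold of the apoptosome, changed by -0.61 ± 0.06, and the BH3-only genes Bmf and Bcl2l11 by -0.45 ± 0.14 and -0.35 ± 0.10. The survival genes Bcl2l1 (0.06 ± 0.08) and Bcl2 (-0.26 ± 0.20) did not pass. Of 20 p53 targets 10 fell and 2 rose, with the death receptor Tnfrsf10b at -0.92 ± 0.12 and Mdm2 at -0.24 ± 0.05. Bnip3, Bmf, Bcl2l11 and Bnip3l were picked after their values were seen.

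The endocrine programme shifted within narrow bounds. Ins1 ran from 24756 to 40448 CPM under BSA and from 19153 to 33619 CPM under PA, with wide overlap and a change of -0.32 ± 0.09 (edgeR adjusted p = 0.0086). Ins2 changed by -0.22 ± 0.10 and did not pass. Iapp, the amyloid-forming peptide released with insulin, rose from a median of 17703 to 23682 CPM (0.44 ± 0.10), and Vgf, a neurosecretory peptide precursor, from 135 to 318 CPM to 330 to 499 CPM without overlap (0.90 ± 0.16). The prohormone convertase Pcsk1, picked after its values were seen, changed by -0.21 ± 0.06. Among 20 identity factors 3 rose and 3 fell, with a median of -0.09 and only 3 positive changes. Ucn3, a marker of mature beta cells, rose by 0.59 ± 0.08 and Nkx2-2 by 0.24 ± 0.07, while the insulin gene activator Mafa changed by -0.28 ± 0.09. Neurod1 (-0.14 ± 0.07) and Nkx6-1 (-0.06 ± 0.08, picked after its values were seen) did not pass. Aldh1a3, an enzyme used as a marker of failing beta cells, rose by 1.16 ± 0.21 with overlapping groups. The delta-cell hormone Sst changed by -0.56 ± 0.16, while Gcg (0.01 ± 0.15) and Ppy (-0.23 ± 0.13) did not pass, and none of the 7 alpha-cell markers passed (1 fell without S12 and 2 without S18).

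In these bulk samples fewer cells of a type and less RNA per cell cannot be told apart, which bears on the following groups in particular. Of the lists with at least 10 tested genes, that of connective cells had the lowest median. Of 24 markers of fibroblasts and stellate cells 19 fell and none rose, with a median of -2.35 (-2.003 in batch 1 and -3.05 in batch 2). Their summed level was 752, 1486 and 3445 CPM under BSA and 90.9, 228 and 535 CPM under PA, and the groups did not overlap. Acta2 and Tagln, proteins of the contractile apparatus, fell from 49.1 to 147 CPM to 7.67 to 12.9 CPM (-3.19 ± 0.32) and from 92.7 to 199 CPM to 7.42 to 28.8 CPM (-3.14 ± 0.30). Fibronectin (Fn1) was at 260, 657 and 713 CPM under BSA and at 24.9, 60.1 and 111 CPM under PA (-3.10 ± 0.38, edgeR adjusted p = 1.5e-06). The pericyte receptor Pdgfrb changed by -2.27 ± 0.37, and the collagen crosslinking oxidase Lox by -4.02 ± 0.53. Col1a1, the main fibrillar collagen, ran from 12.05 to 241 CPM under BSA and from 0 to 42.2 CPM under PA, with its highest PA value in S8. Without S8, 19 of the 24 fell as well. Pdgfrb, Lox and Col1a1 were picked after their values were seen.

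**Figure D3:**
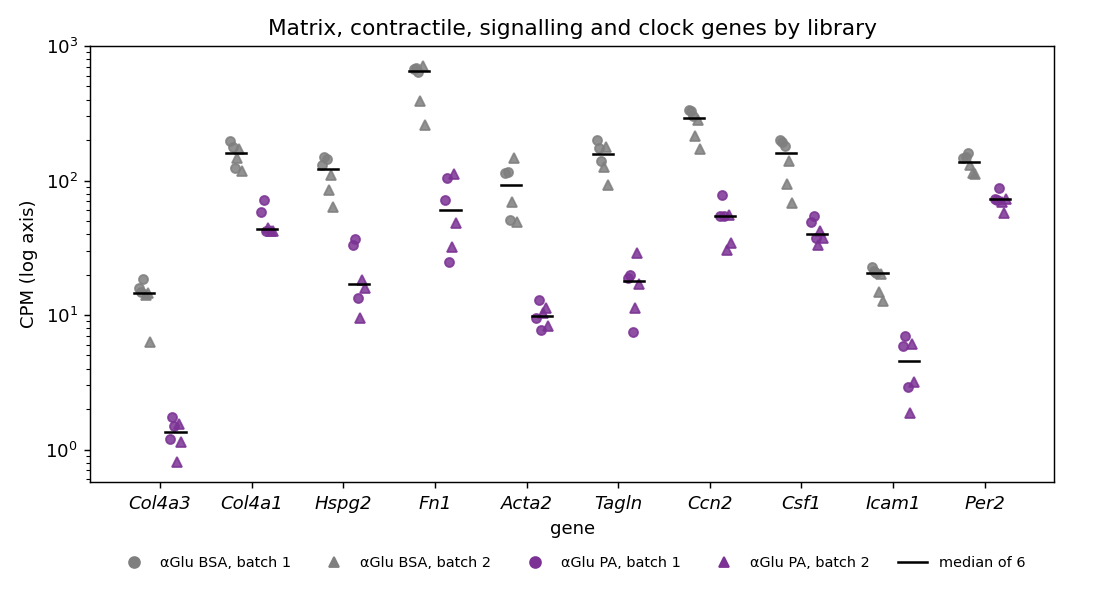
CPM on a log axis in the 6 αGlu BSA (grey) and 6 αGlu PA (purple) libraries for 10 genes of basement membrane, contractile fibres, TGF-beta signalling, cytokines and the clock, with circles for batch 1, triangles for batch 2 and a line at the median. The groups do not overlap for any of the 10 genes, which were chosen with earlier results of these data known. Over all tested genes 3.95% lay wholly lower under PA.

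Of 39 genes of collagen IV, laminins and integrins 28 fell (30 without S8) and none rose, with a median of -1.28. Collagen IV forms the net of the basement membrane along islet vessels, and all 6 of its chains fell. Col4a3 (chr1:82586921-82722059, GRCm38, plus strand) was at 6.30, 14.7 and 18.4 CPM under BSA and at 0.802, 1.35 and 1.74 CPM under PA (-3.40 ± 0.29, edgeR adjusted p = 8.9e-09), and its partner chains Col4a4 and Col4a5 changed by -3.30 ± 0.42 and -1.89 ± 0.23. Col4a1 and Col4a2, the ubiquitous chains, were at a median of 159 and 97.5 CPM under BSA and at 43.2 and 20.5 CPM under PA (-1.64 ± 0.18 and -1.84 ± 0.24). The proteoglycan Hspg2 changed by -2.44 ± 0.29, while the epithelial integrin Itga3 changed by -0.65 ± 0.08. Within the 29 tested genes of TGF-beta signalling 18 fell and none rose. Ccn2, a target of TGF-beta that is induced in many cell types, fell from 172 to 333 CPM to 30.3 to 77.8 CPM (-2.41 ± 0.21). The ligand Tgfb2 changed by -1.65 ± 0.19 and the inhibitor Smad7 by -0.79 ± 0.10. Of 15 proteases and inhibitors of the matrix 5 fell (7 without S8) and 1 rose, with Timp3 at -2.20 ± 0.30 and Mmp14 at -2.21 ± 0.32. The summed fibroblast markers fell over the same libraries, and their part in these falls was not tested. Col4a2, Col4a4 and Col4a5 were picked after their values were seen.

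Endothelial markers are the other vascular group, and they depended on the batch. Of 18 tested only Eng, a TGF-beta coreceptor, fell (-1.19 ± 0.28), but 4 fell without S4, 4 without S8 and 5 without S10, and the median was -0.11 in batch 1 and -1.39 in batch 2. Their summed level was 31.6 to 129 CPM under BSA and 21.5 to 99.1 CPM under PA, with overlap. Acinar markers had a median of -0.93, and 7 of 16 fell (3 without S4), among them Cela1 at -1.19 ± 0.33 and Pnlip at -1.25 ± 0.39.

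**Figure D4:**
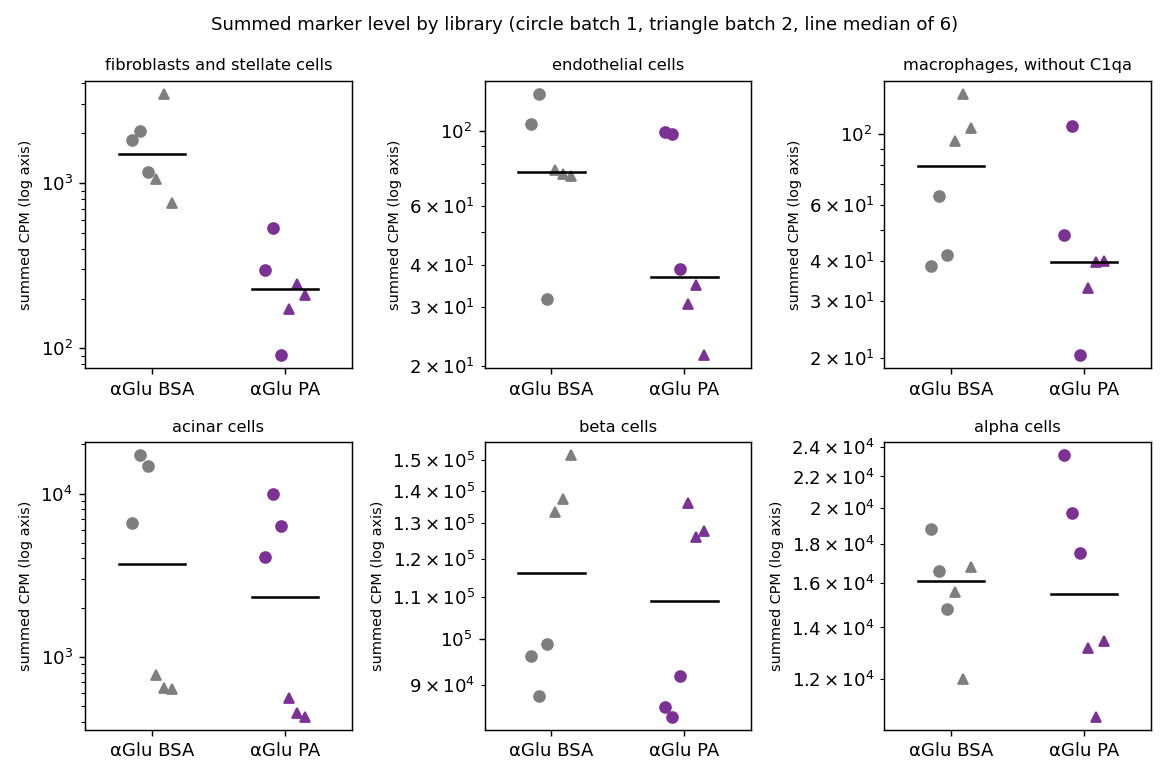
Summed CPM of the markers of 6 cell types in each αGlu BSA (grey) and αGlu PA (purple) library, on log axes, with circles for batch 1, triangles for batch 2 and a line at the median. The fibroblast sums do not overlap (752 to 3445 against 90.9 to 535 CPM), the acinar sums split by batch, and in the macrophage panel, drawn without C1qa, the PA library S8 (106 CPM) lies far above the other 5 (20.4 to 48.4 CPM).

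Macrophage genes rested on few libraries. Of 21 tested markers only Csf1r, the receptor of the growth factor CSF1, fell in αGlu cells, from 4.76 to 7.58 CPM to 1.11 to 3.05 CPM (-1.54 ± 0.30, edgeR adjusted p = 0.00039). The median was -0.39, with 16 of 21 changes positive in batch 1 (median 0.57) and 2 of 21 in batch 2 (median -1.63). In Ctr cells 15 of the 21 fell, with a median of -2.13, and no change was positive. The complement genes C1qb and C1qc changed by -0.39 ± 0.79 and -0.49 ± 0.81 in αGlu cells and by -3.59 and -3.49 in Ctr cells. Without S8 their αGlu changes were -1.90 and -2.08, and both fell. C1qa was at 60.6 to 127 CPM and C1qb at no more than 4.25 CPM in these libraries, and C1qa did not move with its partner genes, so it was left out of the summed level. That sum ran from 38.7 to 133 CPM under BSA and from 20.4 to 106 CPM under PA. The difference between the αGlu and Ctr responses had an unadjusted p under 0.05 for 13 of the 21 markers, against 2.09% of all tested genes, and 0 passed after adjustment in edgeR. Both responses have libraries that weigh on this. Without the αGlu PA library S8, 7 markers fell in αGlu cells (median -1.17) and 2 differed, and without S4, 2 markers fell. Without the Ctr BSA library S21, whose macrophage sum of 434 CPM was the highest of all, 2 differed, and without both 0 did. Csf1, the growth factor itself, was at 68.2, 159 and 199 CPM under BSA and at 33.1, 39.97 and 54.8 CPM under PA, without overlap (-1.72 ± 0.17), and at -1.70 in Ctr cells. C1qa, C1qb and C1qc were picked after their values were seen.

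**Figure D5:**
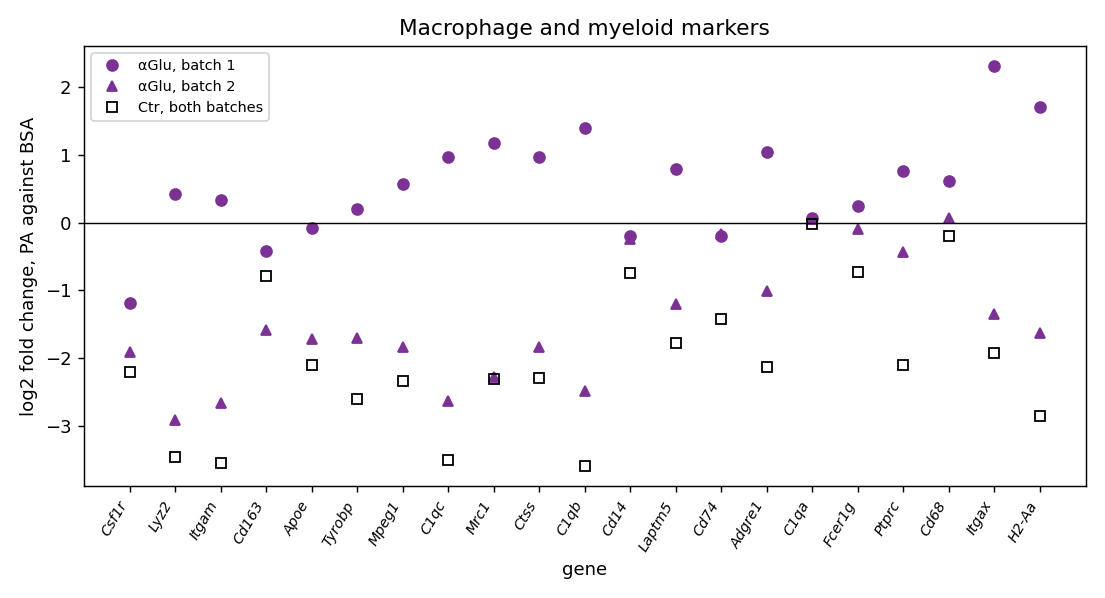
Log2 fold change of PA against BSA for the 21 tested macrophage and myeloid markers in αGlu cells of batch 1 (circles), αGlu cells of batch 2 (triangles) and Ctr cells (open squares), ordered by the αGlu change over both batches. In batch 1, which holds library S8, 16 of the 21 αGlu changes are positive, while all Ctr changes are below 0.

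Interferon-stimulated genes were lower in αGlu cells under PA. Of 46 tested 20 fell and none rose, with a median of -0.54 and 43 changes below 0. Stat2, a signal carrier of the type I interferon receptor, was at 43.0, 54.5 and 90.2 CPM under BSA and at 31.8, 37.7 and 51.7 CPM under PA (-0.61 ± 0.10), and its partner Irf9 changed by -0.67 ± 0.14. The groups overlapped for both and for each other gene of the list. The effectors Ifit2, Ifit1 and Irf7 changed by -1.48 ± 0.30, -0.85 ± 0.28 and -0.76 ± 0.26, while Isg15 at -1.48 ± 0.57 did not pass. Without the αGlu BSA library S6, which had the highest sum of the list (1078 CPM), 9 of the genes fell. The αGlu BSA library S2 also had a high sum (988 CPM), while the αGlu BSA libraries other than S2 and S6 were at 605 to 666 CPM. The αGlu PA libraries ran from 488 to 822 CPM, with the highest sum in S4. S2, S4 and S6 are all of batch 1. In batch 1 alone 3 of the genes fell, in batch 2 alone 8, and with no batch term 6. The Ctr BSA libraries were at 494 to 662 CPM. In Ctr cells 7 of the 46 fell and the median was -0.24. The response differed between the ASOs at an unadjusted p under 0.05 for 5 of the 46, against 2.09% of all tested genes, and 0 passed after adjustment in edgeR. The interferon-stimulated response element, searched by its core letters, was in 21 of 34 promoters of the list and in 3.68% of all genes. Of the 21 genes 11 fell, as did 7 of the other 13, and over all 445 genes with it 16.9% fell. The Stat2 promoter is printed with the element in capitals, 213 bases before the start.
Stat2 (chr10:128270248-128270547, plus strand): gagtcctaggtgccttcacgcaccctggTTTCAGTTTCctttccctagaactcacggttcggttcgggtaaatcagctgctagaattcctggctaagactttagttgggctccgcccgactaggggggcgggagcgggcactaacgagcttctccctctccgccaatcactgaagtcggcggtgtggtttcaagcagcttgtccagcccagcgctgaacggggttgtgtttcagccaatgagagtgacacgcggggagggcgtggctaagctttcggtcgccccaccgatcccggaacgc
Ifit1, Irf7 and Isg15 were picked after their values were seen.

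Among 33 chemokine and NF-kB genes 9 fell and 1 rose, and 5 fell where any of S6, S12, S16 or S18 was left out. Icam1, the leukocyte adhesion molecule, went from 12.8 to 22.7 CPM to 1.87 to 6.99 CPM without overlap (-2.06 ± 0.24), Cxcl12, a chemokine of stromal cells, changed by -1.27 ± 0.24, and Cx3cl1, a membrane-bound chemokine, rose by 0.49 ± 0.09.

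Clock genes, which keep time by a feedback loop of activators and repressors, were mostly lower. Of 19 clock genes 10 fell and 1, the activator Rora, rose, with a median of -0.33. Per2 (chr1:91415982-91459324, GRCm38, minus strand), a repressor that closes the clock's feedback loop, was at 112, 138 and 161 CPM under BSA and at 57.7, 72.7 and 88.5 CPM under PA (-0.90 ± 0.06, edgeR adjusted p = 8.4e-10). Per1 did not overlap either (106 to 151 against 67.5 to 92.8 CPM, -0.68 ± 0.07). Nr1d1, which encodes the repressor REV-ERBα, changed by -0.76 ± 0.09, the output factor Dbp by -0.84 ± 0.12, and the activator Arntl by -0.33 ± 0.07. Rora and Arntl were picked after their values were seen. All libraries were taken at 48 h, so no phase can be read. The E-box CACGTG, where the clock activators bind, was in 5 of 15 clock promoters and in 11.1% of all genes, and over all 1339 genes with it 11.2% fell and 21.9% rose. Per1 holds it 161 bases before the start, in capitals.
Per1 (chr11:69098699-69098998, plus strand): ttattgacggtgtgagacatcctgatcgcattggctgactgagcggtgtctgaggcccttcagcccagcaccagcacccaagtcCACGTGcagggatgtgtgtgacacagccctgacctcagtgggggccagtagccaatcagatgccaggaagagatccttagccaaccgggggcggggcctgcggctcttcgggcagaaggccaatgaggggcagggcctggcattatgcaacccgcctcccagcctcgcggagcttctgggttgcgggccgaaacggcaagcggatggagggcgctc

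Immediate early genes, which answer to calcium and growth signals, fell in part. Of 22 tested 8 fell and 1, Myc, rose. Nr4a1 and Nr4a2, orphan nuclear receptors induced by cAMP and calcium, changed by -0.99 ± 0.11 and -0.56 ± 0.08, and Fos by -0.58 ± 0.15.

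Several of the genes with the smallest p belong to no list. Rassf2, a Ras-association protein, rose from 13.8 to 25.1 CPM to 36.6 to 51.3 CPM (1.22 ± 0.07), Hpgds, a prostaglandin D synthase, by 1.32 ± 0.10, and Gatm, the first enzyme of creatine synthesis, by 1.43 ± 0.12. Fbp2, a fructose bisphosphatase, was low and rose from a median of 0.989 to 6.44 CPM (2.92 ± 0.24), and the transcription factor Klf11 rose by 1.06 ± 0.08. Akap5, an anchor of protein kinase A and calcineurin, fell from 8.60 to 13.4 CPM to 1.61 to 2.65 CPM (-2.34 ± 0.20). Among abundant genes the noncoding RNA Neat1, the scaffold of paraspeckles, rose from 226 to 297 CPM to 418 to 585 CPM (1.00 ± 0.09), and the matrix glycoprotein Thbs1 fell with overlap (-2.52 ± 0.33). Rnase4 (chr14:51091077-51106151) rose by 0.95 ± 0.09, and Ang (chr14:51091150-51102009), the angiogenin ribonuclease known to cut tRNAs under stress, ran from 13.4 to 29.2 CPM under BSA and from 30.6 to 43.96 CPM under PA (0.84 ± 0.13, edgeR adjusted p = 3.9e-05). Both lie on the plus strand and overlap, so their counts may share reads. Ang was picked after its values were seen.

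The αGlu response was set beside that of Ctr cells, whose 12 libraries are separate ones. In Ctr cells 2467 genes rose (15.5%) and 2305 fell (14.5%), or 30% in all. The difference between both responses was tested gene by gene in the same model. No gene passed an adjusted p under 0.05 in edgeR or in DESeq2, and 332 and 340 had an unadjusted p under 0.05. The changes of Cpt1a (2.25 and 2.18 in αGlu and Ctr cells), Plin2 (1.41 and 1.42), Ddit3 (0.72 and 0.60), Hspa5 (0.39 and 0.45), Col4a3 (-3.40 and -3.57) and Per2 (-0.90 and -0.97) lay close together in size. The smallest unadjusted p of the difference were those of Proser3 (0.42 in αGlu and -0.15 in Ctr cells), Pde2a, a cyclic nucleotide phosphodiesterase (-2.90 and -0.49), the acetylcholinesterase Ache (0.50 and -0.24) and Klk8 (-5.45 and -1.32). Pde2a ran from 1.62 to 18.8 CPM under BSA and from 0 to 2.32 CPM under PA, and Klk8 did not exceed 0.686 CPM in these 12 libraries.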

How the data were processed

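Poly(A) mRNA of dispersed mouse islet cells was sequenced from a stranded kit in 24 libraries. Per the labels and the methods of the study, the authors used version 5.1 of QIAGEN's RNA-seq Analysis Portal to make the deposited count table, and the build in the submitters' processing notes is GRCm38. The values used are raw read counts per gene. Empty cells were read as 0, 1 row without a gene (0 counts) was left out, and 72 value columns that hold other units or the authors' own comparisons were not used. Of 41549 identifiers 16206 had no count in any library. Gene coordinates are those of GENCODE for GRCm38.

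From these counts, genes that passed filterByExpr were scaled by TMM and fitted over all 24 libraries with group and batch as terms, using the quasi-likelihood test of edgeR 4.0.16 (R 4.3.3, limma 3.58.1) with Benjamini-Hochberg adjustment over 15916 genes. They hold 99.95% of all counts. The batch difference was tested in a model with a mean for each group and batch. CPM values are on TMM-scaled library sizes. The test of PA against BSA in αGlu cells was tried on simulated counts, drawn as independent libraries. The differences between batches and between ASOs, and libraries that share an animal, were not simulated. Depth per library was 24608893 to 31049750 counts in αGlu cells, and the tests rest on 6 libraries a group, which the study counts as separate experiments. For total counts, an exact two-sided permutation test between PA and BSA gave p = 0.275.

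Members, lists, motifs and tests were chosen with earlier results of these data known. Named genes are the 12 raised and 12 lowered of smallest p above 2-fold with the same direction in both batches, the 6 raised and 6 lowered abundant genes (at least 100 CPM) of largest change, up to 4 genes of smallest p in each list, genes the study discussed by name, islet hormones and the 5 genes of smallest p in each difference of responses. Not every gene so taken is printed, and others are said to be picked after their values were seen. Alternatives were DESeq2 1.42.0, upper-quartile scaling, no or a stricter filter, no batch term, αGlu libraries alone, each batch alone and the omission of each αGlu library. Leaving out S21, alone or with S8, was chosen after seeing the data. A few genes are not reported here.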

Additional observations from a re-analysis of the deposited data

Results flagged for a closer look

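Of 324 sets of 6 values checked, 16 held a lowest or highest library far from the other 5, where chance flags about 1 in 20 groups. The αGlu PA library S8 gave 10 of the 16. It was the highest of its group for Lyz2 at 18.99 CPM, for C1qb at 3.67 CPM and for C1qc at 3.94 CPM, all genes of macrophages. It was also the highest for Col1a1 at 42.2 CPM and Lox at 17.4 CPM, genes of connective cells, and for Fos at 17.3 CPM, Stc2 at 15.6 CPM, Plin2 at 74.99 CPM and Acaa2 at 32.7 CPM. It was the lowest for Rora at 85.9 CPM.

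Among the BSA libraries, S6 stood above the others for Cpt1a at 47.6 CPM. S22 stood below them for Col4a3 at 6.30 CPM, and S2 below them for Atf4 at 315 CPM. The PA library S16 stood above the others for Nr4a2 at 35.4 CPM. Klk8, of very low level, was at 0 CPM in the BSA library S10 and at 0.0403 CPM in the PA library S24.

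The change under PA differed between batches, by edgeR's test of the difference, for Fdps by 0.76, Fads2 by 1.12 and Scd2 by 0.98 on the log2 scale (batch 2 less batch 1). What the batches are is not given in the labels, and the cause was not tested.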

How the results depend on the processing

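The 886 genes above 2-fold at an unadjusted p under 0.05 were 795 to 1013 with each library left out, 1466 with no filter on low counts (more genes tested) and 748 with an adjusted p. The 4543 genes past adjustment were 3936 to 4331 with each library left out, 2271 with no batch term, 1644 in batch 1 alone and 1902 in batch 2 alone (fewer samples). The 3 genes that differed between batches were 6 in DESeq2 and 1 to 4 with each library left out. List medians that moved by more than the spread between libraries were those of fatty-acid oxidation (0.27 in batch 2 alone), cholesterol synthesis (0.13 in batch 1 and 0.44 in batch 2 alone), ceramide synthesis (0.13 in batch 1 alone), macrophage markers (-1.63 in batch 2 alone) and Schwann cell markers (-0.077 in batch 1 alone). Changes of sign were seen in batch 1 alone for Lyz2 (0.41), Fads2 (-0.22), Scd2 (-0.19), C1qb (1.39), C1qc (0.95) and Vamp8 (-0.0096). For Gcg, whose change was 0.01, they were seen in DESeq2 (-0.00438), in batch 2 alone (-0.25) and with a library left out (-0.066 to 0.092 over all 12). The cause was not tested. Of 86 counts of list members that rose or fell, 53 were lower and 0 higher with no batch term (21 to 4 for the ER list), 58 lower and 0 higher in batch 1 alone, and 49 lower and 7 higher in batch 2 alone. Some counts of 0 to 2 moved with a library left out: the p53 targets that rose were 1 without S6, S8, S10, S12, S16, S18 or S20, Myc was lost without S20 and the matrix protease gene that rose without S2 or S8. The oxidation genes that fell were 2 without S12, S16 or S22, the uptake genes that fell 2 without S8, the clock genes that rose 2 without S4, the chemokine genes that rose 2 without S10 and the interferon genes that rose 1 without S6. No paired analysis was possible because each library carries a number of its own and the labels do not say which share an animal. The endothelial sums of S10 and S12 (31.6 and 38.9 CPM) lay below those of the other 4 αGlu libraries of batch 1 (98.1 to 129 CPM), and libraries of 1 animal are treated as separate in all tests. Depth limits genes of a few counts, such as Klk8.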

Other observations

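Several lists not described so far moved little or in part. Of 24 glycolysis genes 2 rose and 5 fell. Lactate dehydrogenase Ldha, an enzyme that mature beta cells keep low, was at 25.9, 44.9 and 75.4 CPM under BSA (lowest, median and highest library) and at 7.86, 14.7 and 39.2 CPM under PA, with overlap and a change of -1.43 ± 0.20. The lactate exporter Slc16a3 changed by -1.65 ± 0.35 without overlap, and Hk1, a hexokinase that is also kept low in beta cells, by -0.80 ± 0.17. Of 18 such disallowed and dedifferentiation genes 7 fell and 1 rose, with a median of -0.44. Fibroblast markers fell over the same libraries, and their part in these changes was not tested.

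Of 30 genes of glucose sensing and exocytosis 9 rose (5 without S4) and 4 fell. The calcium channel Cacna1a was at 127 to 151 CPM under BSA and at 96.6 to 117 CPM under PA, without overlap (-0.37 ± 0.07), while the calcium sensor Syt7 rose by 0.28 ± 0.06. Of 17 genes of insulin and prohormone processing 5 rose (3 where any of S4, S6, S10, S16 or S20 was left out) and 2 fell, and Vamp8 (0.07 ± 0.07) and Tax1bp3 (-0.28 ± 0.15) did not pass. Of 37 cell cycle genes 3 rose and 1 fell (none where any of S2, S4, S6, S8, S10, S12, S14 or S24 was left out), with E2f1, a driver of entry into DNA synthesis, at 0.83 ± 0.13.

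Among markers of other cells, 3 of 9 for beta cells rose and 2 fell, 1 of 4 for delta cells fell (2 without S24), none of 3 for PP cells passed, 1 of 10 for ductal cells rose and 3 fell, 1 of 2 for lymphocytes fell (both where any of S10, S12 or S24 was left out), and 2 of 17 for Schwann cells and glia rose and 2 fell (1 where any of S6, S12, S16, S18 or S20 was left out). Of 3 genes of carnitine synthesis and uptake 1, Aldh9a1, rose.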
